A study of Mus musculus with 375 samples.

Results

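Mtx2 encodes metaxin 2, a subunit of the sorting and assembly machinery of the mitochondrial outer membrane. It was described here together with 8 other genes of mitochondrial protein import, Mtx1, Samm50, Tomm20, Tomm22, Tomm40, Timm23, Timm44 and Immt, which make 9 of the 21872 genes counted. Mtx2 was chosen because it was lower in CD8-depleted than in WT cardiomyocytes, so its values in that comparison describe the choice, and no p-value or call of it there is given as a result. The other 8 genes were chosen for their place in the import machinery.

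RNA was sequenced with the Smart-seq2 full-length method in single cardiomyocytes of C57BL/6N mice, taken from the left ventricle. Pressure overload had been set up 2 weeks earlier by narrowing the transverse aorta (TAC). The CD8-depleted mice received an anti-CD8 antibody from the day of operation until harvest, the CD3e-/- mice are by their label without the CD3e chain, a knockout known for its lack of T cells, and the WT mice kept their T cells. According to the study's methods the animals were young adult males. All 3 groups had the operation, so no group here shows the unloaded heart. Each group had 2 numbered sets of cells, and the labels do not say whether a set number marks 1 mouse, so every p-value below measures the spread between sets only. Rod-shaped living cells had been picked by hand after enzymatic dissociation, and a library was made only where Tnnt2 RNA was detectable early enough in quantitative PCR.

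Of 375 cells, 320 had at least 3000 detected genes and no duplicate in another set. They comprised 62 and 49 CD8-depleted cells, 11 and 77 CD3e-/- cells, and 59 and 62 WT cells in sets 1 and 2. The counts from nuclear genes summed to 7643239 and 5469742 in CD8-depleted sets, 604652 and 24057660 in CD3e-/- sets, and 23691021 and 20540110 in WT sets. CD3e-/- set 1 stood apart with its 11 cells, and each comparison is therefore given over all 6 sets and over the 5 others. Over 5 sets the CD3e-/- group is set 2 alone, and its intervals and p-values assume that it varies like the CD8-depleted and WT groups, which supply the spread. The share of counts from mitochondrial DNA had a median per cell of 93.99% and 90.82% in CD8-depleted sets, 94.09% and 92.12% in CD3e-/- sets, and 77.29% and 85.35% in WT sets, so levels below are CPM, the counts of a gene scaled to a total of 1000000 counts from nuclear genes. The 10 cardiomyocyte markers were all present, with summed levels of 143279 to 167722 CPM in CD8-depleted sets, 58169 to 139706 CPM in CD3e-/- sets and 124376 to 151490 CPM in WT sets. The 8 fibroblast markers summed to 99.0 to 352 CPM, 215 to 433 CPM and 25.3 to 108 CPM in the same order of groups, and the 7 T cell markers to 1.18 to 3.29 CPM, 2.04 to 61.2 CPM and 0 to 0.779 CPM. Of these, Pdgfra was at 0 in CD8-depleted set 1 and WT set 2, and all 7 T cell markers were at 0 in WT set 1. The endothelial, mural and macrophage markers overlapped between CD8-depleted and WT sets, at 82.6 to 300 CPM against 118 to 131 CPM, 180 to 358 CPM against 243 to 341 CPM, and 17.7 to 27.8 CPM against 4.53 to 24.1 CPM. CD3e-/- set 1 had the highest endothelial (810 CPM), mural (1123 CPM), fibroblast (433 CPM) and T cell (61.2 CPM) sums of the 6 sets and the lowest cardiomyocyte sum (58169 CPM), while CD3e-/- set 2 had 105 CPM of endothelial and 279 CPM of mural markers. Cd3e itself, the targeted gene, went against the labels, with 1 and 2 counts in CD8-depleted sets, 4 and 37 counts in the sets labelled CD3e-/-, and 0 in both WT sets. The counts labelled CD3e-/- came from 3 of 11 and 8 of 77 cells, 26 of the 37 from 1 cell. Counts per gene do not show whether these reads lie in the deleted part of the gene, so the genotype was not settled by this gene, and CD3e-/- below means cells labelled so. The part of these other cell types in the levels below was not tested.

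Nearly all mitochondrial proteins are made in the cytosol and enter the organelle through the TOM complex of the outer membrane. Presequence proteins then pass the inner membrane through the TIM23 channel, pulled by the PAM motor, while beta-barrel proteins such as VDAC and Tom40 are folded into the outer membrane by the SAM complex. SAM in turn touches MICOS, the inner membrane complex that shapes cristae, and in the heart these organelles fill much of the cardiomyocyte.

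The 9 genes lay on 7 chromosomes of mm10. Mtx2 was at chr2:74825803-74878431 on the plus strand, with 3675 bases of exon and no other counted gene inside its span. Mtx1 was at chr3:89209081-89227088 on the minus strand, with 3584 bases of exon, of which 318 also belonged to exons of Thbs3, so reads from that stretch could not be told apart without strand and the Mtx1 level is uncertain to that extent. Exons of the other 7 members shared no base with another counted gene. The start regions of the SAM genes and of Tomm20 are printed from RefSeq (GRCm38.p6) to show what sequence the genes whose levels diverge carry at their start. All 9 members had an entry. Each line holds the 80 bases before the annotated start, 5′ to 3′, and capitals mark a match on either strand to CCGGAAG, the core bound by GABP and other ETS factors, or to TGCGCA, a core of the NRF1 site. Both factors are known regulators of nuclear genes for mitochondrial proteins.

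Mtx2 (chr2:74825732-74825811, plus strand): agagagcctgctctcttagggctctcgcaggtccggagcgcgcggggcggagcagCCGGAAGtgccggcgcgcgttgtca
Mtx1 (chr3:89213908-89213987, minus strand): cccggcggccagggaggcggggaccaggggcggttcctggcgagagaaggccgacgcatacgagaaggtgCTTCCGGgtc
Samm50 (chr15:84192160-84192239, plus strand): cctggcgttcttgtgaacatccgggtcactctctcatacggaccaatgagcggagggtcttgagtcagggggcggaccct
Tomm20 (chr8:126945922-126946001, minus strand): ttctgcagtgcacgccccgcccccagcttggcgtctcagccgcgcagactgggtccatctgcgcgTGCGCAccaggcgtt

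Within 250 bases before the start, 5 of the 9 members held CCGGAAG, namely Mtx1, Mtx2, Tomm22, Timm23 and Immt, against 6.91% of 32851 mouse promoters. In Tomm22 the matches of both strands overlap by 4 bases. Mtx2 and Mtx1 carried theirs 25 and 10 bases before the start, so the metaxin genes, whose levels went in different directions below, share this letter string. TGCGCA was found in Tomm20 and Timm23 among the members, 15 and 184 bases before the start, against 6.43% of all promoters. Samm50 and the remaining 2 members, Tomm40 and Timm44, held neither string in this window. A match describes letters and does not show a bound factor. The annotated start of Mtx1 lies inside the span given for the gene in the counts, which reaches further upstream.

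Mtx2 was lowest in CD8-depleted cells. Its level was 40.95 and 21.9 CPM in CD8-depleted sets 1 and 2, 33.1 and 77.02 CPM in CD3e-/- sets, and 165 and 82.2 CPM in WT sets. Both CD8-depleted sets lay below both WT sets, and both CD3e-/- sets lay below both WT sets as well, while CD3e-/- set 1 lay between the CD8-depleted sets. The mean was 31.5 ± 13.4 CPM in CD8-depleted sets, 55.05 ± 31.1 CPM in CD3e-/- sets and 124 ± 58.7 CPM in WT sets (SD, n = 2 sets each). The counts behind these levels were 313 and 120 in CD8-depleted sets, 20 and 1853 in CD3e-/- sets, and 3913 and 1688 in WT sets. The fitted log2 fold change of CD8-depleted over WT was −1.90 over 6 sets, a level 0.268 times that of WT. It was −1.93 over 5 sets. It was −2.50 without CD8-depleted set 1 and −1.50 without CD8-depleted set 2. These values come from the sets Mtx2 was chosen on and add no independent support. As a ratio, the WT sets differed from each other by about as much as CD8-depleted set 1 differed from WT set 2, so the size of the fall depends on which WT set is taken.

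CD3e-/- cells share the WT sets, and the CD8-depleted sets, with the comparison that chose Mtx2, so their values are not independent of that choice. The log2 fold change of CD3e-/- over WT was −1.49 over 6 sets, −0.84 over 5 sets and −3.05 without CD3e-/- set 2. CD3e-/- over CD8-depleted gave 0.41 over 6 sets and 1.10 over 5 sets, and turned to −1.14 without CD3e-/- set 2, since only the 11 cells of set 1 were then left in that group. The CD3e-/- values thus depend on which of its sets is taken.

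**Figure D1:**
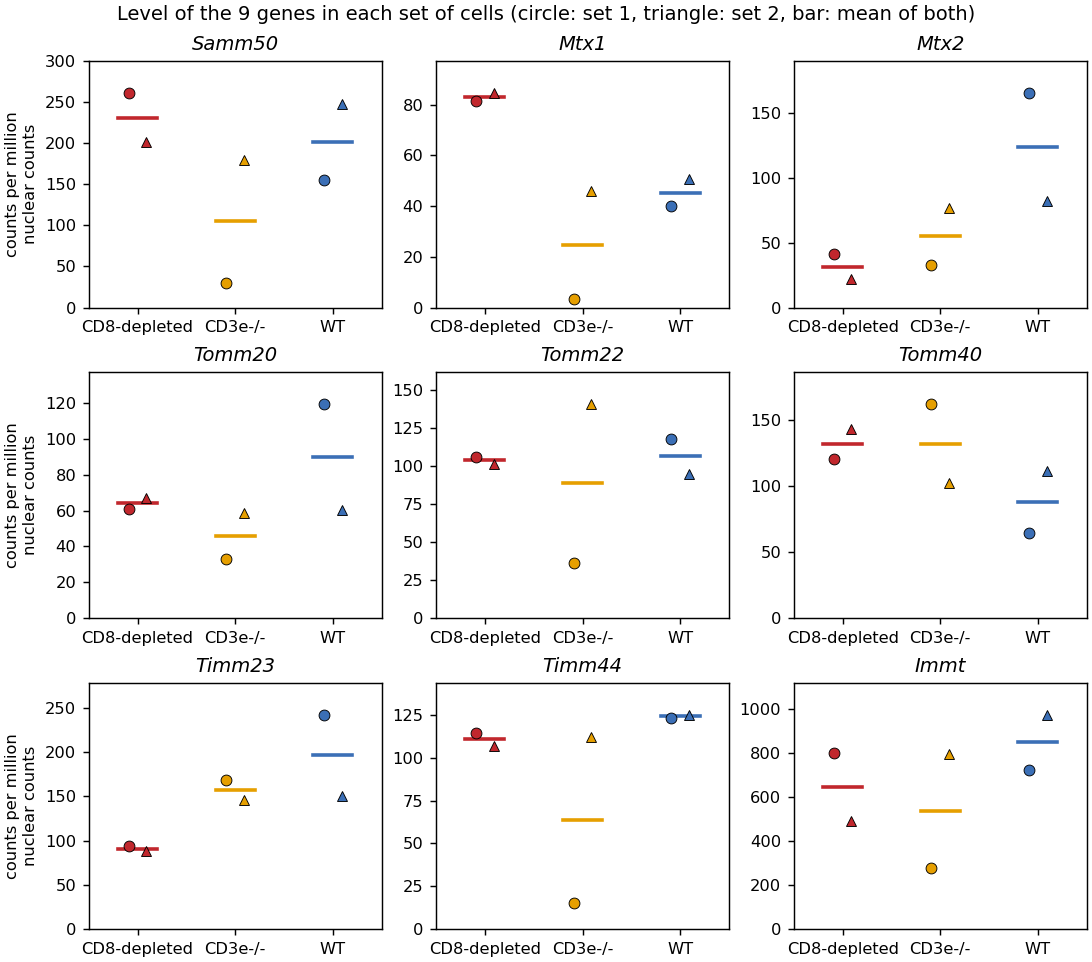
Level of each of the 9 members in CPM over nuclear genes (vertical axis, from 0) in CD8-depleted, CD3e-/- and WT cells, with a circle for set 1, a triangle for set 2 and a bar for the mean of both. For Mtx2 both CD8-depleted sets (40.95 and 21.9 CPM) sit below both WT sets (165 and 82.2 CPM), for Mtx1 both sit above (81.5 and 84.5 against 40.1 and 50.5 CPM), and CD3e-/- set 1 is far from CD3e-/- set 2 for most members.

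The other SAM genes did not follow Mtx2. Mtx1 encodes metaxin 1, its partner on the cytosolic face of SAM, and measured 81.5 and 84.5 CPM in CD8-depleted sets, 3.31 and 45.8 CPM in CD3e-/- sets, and 40.1 and 50.5 CPM in WT sets. Both CD8-depleted sets were above both WT sets, with means of 83.0 ± 2.09 CPM in CD8-depleted sets and 45.3 ± 7.32 CPM in WT sets (SD, n = 2 sets each). The log2 fold change of 0.85 over 6 sets (SE 0.99) and 0.83 over 5 sets (95% interval −0.02 to 1.68) did not pass edgeR's quasi-likelihood test with Benjamini-Hochberg adjustment, at adjusted p = 1 and 0.514. It was 0.53 without WT set 1 and 1.22 without WT set 2, and lay between 0.36 and 1.26 over 24 alternatives. The 0.36 was found in cells with at least 5000 detected genes. There Mtx1 measured 58.8 and 69.5 CPM in CD8-depleted sets against 37.7 and 56.1 CPM in WT sets. The Mtx1 value in CD3e-/- set 1 rested on 2 counts.

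Samm50, the beta-barrel that forms the SAM channel, measured 261 and 201 CPM in CD8-depleted sets, 29.8 and 180 CPM in CD3e-/- sets, and 155 and 248 CPM in WT sets. CD8-depleted and WT sets overlapped, and the log2 fold change was 0.16 over 6 sets (95% interval −2.07 to 2.39) and 0.14 over 5 sets (−0.63 to 0.90). The sign depended on the WT sets, with −0.29 without WT set 1 and 0.76 without WT set 2. Mtx3, the least abundant metaxin gene, had 2.36 and 4.75 CPM in CD8-depleted sets, 6.62 and 4.28 CPM in CD3e-/- sets, and 6.16 and 1.85 CPM in WT sets, and its groups overlapped too.

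Set against each other within a set, the metaxin genes changed places. Per kilobase of exon, the ratio of Mtx2 to Mtx1 counts was 0.490 and 0.253 in CD8-depleted sets, 9.75 and 1.64 in CD3e-/- sets, and 4.01 and 1.59 in WT sets. Mtx1 thus had more counts per length than Mtx2 in both CD8-depleted sets and fewer in the 4 other sets. This ratio does not depend on the scaling between sets, but it joins the gene that was chosen for its fall with the gene whose exons overlap Thbs3. The ratio of Mtx2 to Samm50 was 0.280 and 0.194 in CD8-depleted sets, 1.98 and 0.764 in CD3e-/- sets, and 1.90 and 0.590 in WT sets, again lowest in the CD8-depleted sets. Mtx1 to Samm50, which does not hold the chosen gene, was 0.571 and 0.767 in CD8-depleted sets, 0.203 and 0.466 in CD3e-/- sets, and 0.473 and 0.372 in WT sets, a narrower spread.

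**Figure D2:**
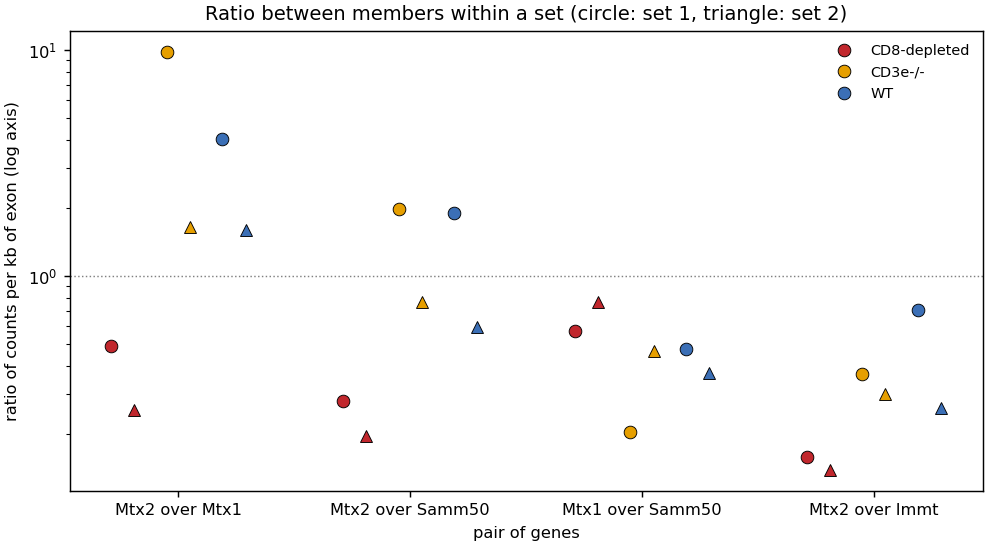
Ratio of counts per kilobase of exon between pairs of members within each set, on a log axis, with groups side by side (CD8-depleted, CD3e-/-, WT), a circle for set 1 and a triangle for set 2. The dotted line marks a ratio of 1. Mtx2 over Mtx1 is below 1 in both CD8-depleted sets (0.490 and 0.253) and above 1 in the other 4, and Mtx1 over Samm50 stays below 1 in all 6.

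The 3 TOM members showed no common direction in CD8-depleted against WT cells. Of the 8 TOM genes tested, 6 were lower there over 6 sets. Their median log2 fold change was −0.42, against 0.02 for all genes. In CD3e-/- against WT cells all 8 were lower over 6 sets, at a median of −0.76 against 0.01. Over 5 sets 6 were lower, at −0.22 against −0.06. Tomm20, a receptor that binds presequences, measured 61.1 and 67.1 CPM in CD8-depleted sets, 33.1 and 58.6 CPM in CD3e-/- sets, and 120 and 60.6 CPM in WT sets. WT set 2 lay below CD8-depleted set 1, so these groups overlapped, and the log2 fold change of CD8-depleted over WT was −0.43 over 6 sets (SE 0.73) and −0.46 over 5 sets (SE 0.40). Both CD3e-/- sets lay below both WT sets for Tomm20, at −1.35 over 6 sets (adjusted p = 0.687) and −0.77 over 5 sets (adjusted p = 1). Tomm22, the central receptor that holds the complex together, had the narrowest range of these 3 genes over CD8-depleted and WT sets, with 106 and 101 CPM in CD8-depleted sets, 36.4 and 141 CPM in CD3e-/- sets, and 118 and 94.4 CPM in WT sets. Its log2 fold change of CD8-depleted over WT was −0.04 over 5 sets (95% interval −0.79 to 0.71) and crossed 0 under other settings. Tomm40, the channel itself, measured 121 and 143 CPM in CD8-depleted sets, 162 and 102 CPM in CD3e-/- sets, and 64.2 and 112 CPM in WT sets. In CD3e-/- set 1 the highest cell gave 81.6% of the Tomm40 counts. Both CD8-depleted sets were above both WT sets. The log2 fold change of 0.53 over 6 sets (SE 0.71, adjusted p = 1) and 0.52 over 5 sets (SE 0.40, adjusted p = 0.700) did not pass. It was 0.05 without WT set 1 and 1.21 without WT set 2, so its size depends on which WT set is taken.

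Of the 3 members of the inner membrane, Timm23, Timm44 and Immt, Timm23 had the lowest fold change in CD8-depleted cells. Timm23 forms the core of the presequence translocase, and measured 94.2 and 87.8 CPM in CD8-depleted sets, 169 and 146 CPM in CD3e-/- sets, and 242 and 151 CPM in WT sets. Both CD8-depleted sets lay below both WT sets, with a mean of 91.0 ± 4.56 CPM against 197 ± 64.7 CPM in WT sets (SD, n = 2 sets each). They lay below both CD3e-/- sets too, but the highest cell of CD3e-/- set 1 gave 55.9% of its Timm23 counts. That set had 6.51 CPM in cells with 80 to 95% of counts from mitochondrial DNA. It had 4.73 CPM in cells with at least 5000 detected genes, in both cases below both CD8-depleted sets. The log2 fold change of CD8-depleted over WT was −1.07 over 6 sets (95% interval −2.65 to 0.51, adjusted p = 1) and −1.10 over 5 sets (−1.85 to −0.34, unadjusted p = 0.00558, adjusted p = 0.254 by edgeR), so it did not pass among all genes. The value was −1.79 in cells with at least 5000 detected genes, where CD8-depleted sets 1 and 2 measured 99.7 and 12.1 CPM. Set 2 had only 8 such cells, with 15 Timm23 counts. In cells with 80 to 95% of counts from mitochondrial DNA the fold change was −0.60. In CD3e-/- cells Timm23 differed from WT by −0.60 over 5 sets (SE 0.46, adjusted p = 1). Timm44, which ties the PAM motor to the channel, measured 115 and 107 CPM in CD8-depleted sets, 14.9 and 112 CPM in CD3e-/- sets, and 123 and 125 CPM in WT sets. Its CD8-depleted sets were below its WT sets by little, at a log2 fold change of −0.19 over 5 sets (95% interval −0.94 to 0.57).

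Immt encodes mitofilin, the scaffold of MICOS, and had the most counts of the 9. It measured 804 and 490 CPM in CD8-depleted sets, 280 and 798 CPM in CD3e-/- sets, and 724 and 976 CPM in WT sets. CD8-depleted set 1 was above WT set 1, so the groups overlapped, and the log2 fold change was −0.41 over 6 sets (SE 1.05) and −0.44 over 5 sets (SE 0.38, adjusted p = 0.727).

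Counted over the 9 members, 0 passed an adjusted p of 0.05 in any of the 3 comparisons over 6 sets by edgeR, where 0% of 12936 genes did. In CD8-depleted against WT 341 genes had an unadjusted p under 0.05 over 6 sets, among them 0 of the 8 members other than the chosen Mtx2, and DESeq2 called 0 members and 8 genes. In CD3e-/- against WT 0 members and 1071 genes had an unadjusted p under 0.05 over 6 sets, and in CD3e-/- against CD8-depleted 0 members and 505 genes. DESeq2 called 0 members in both, and 611 and 15 genes. Over 5 sets 32 of 13374 genes passed in CD8-depleted against WT, or 0.239%, with Mtx2, which that contrast had chosen, among them and 0 of the 8 other members. In CD3e-/- against WT 0 members and 0.127% of genes passed over 5 sets, and in CD3e-/- against CD8-depleted 0 members and 0.015%, both with CD3e-/- set 2 as the only set of its group. Without CD3e-/- set 2 instead, the group is the 11 cells of set 1 alone, and calls in its comparisons are not given. Sets that do not overlap are more frequent. Mtx2, chosen by its WT and CD8-depleted sets, is left out of the counts against WT. Both CD8-depleted sets lay below both WT sets for 2 of the 8 others (Timm23 and Timm44), against 19.8% of all genes tested. They lay above both WT sets for 2 (Mtx1 and Tomm40), against 21% of all genes. In CD3e-/- cells 2 of these 8 (Tomm20 and Timm44) lay below both WT sets, against 8.7% of genes, and 0 above, against 28% of genes. In CD3e-/- against CD8-depleted cells 3 members (Mtx1, Samm50 and Tomm20) had both CD3e-/- sets below, against 7.91% of genes, and 1 (Timm23) had both above, against 26.4%. Without Mtx2 the median log2 fold change of the 8 other members was −0.09 in CD8-depleted over WT across 6 sets, against 0.02 for all genes. It was −1.07 in CD3e-/- over WT across 6 sets and −0.34 across 5 sets, where all genes had medians of 0.01 and −0.06. CD3e-/- set 1 therefore carried most of the lower values in CD3e-/- cells. There the members had between 2 and 169 counts, against 120 to 20052 in the other sets.

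Per kilobase of exon, the 9 genes ranged widely. Averaged over the 5 sets, Timm23 stood first at 80.8 CPM per kilobase, then Tomm22 at 67.9, Immt at 66.8, Samm50 at 31.9, Timm44 at 31.8, Tomm40 at 24.01, Mtx2 at 21.1, Mtx1 at 16.9 and Tomm20 at 14.95. Neighbours in this order overlapped in their ranges over sets, except that Immt (43.2 to 86.0) lay above Samm50 (23.7 to 39.8). The place of Mtx2 in the order differed between groups. It was the last of the 9 in CD8-depleted cells, at 8.56 ± 3.66 CPM per kilobase (SD, n = 2 sets), below Tomm20 at 13.1 without overlap. In CD3e-/- cells it was the seventh at 14.98 and in WT cells the fifth at 33.7, in both with a range that overlapped its neighbours. Exon lengths here are summed over all annotated exons of a gene, from 1651 bases for Tomm22 to 11353 bases for Immt.

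The wider import machinery gave 53 genes, of which 51 had enough counts to be tested in the 6-set fit. It covered TOM, SAM, the TIM23 channel, the PAM motor, the TIM22 carrier translocase, the small TIM chaperones, the peptidases, the disulfide relay, the insertase and MICOS. In CD8-depleted over WT 40 of these 51 were lower and 11 higher, with a median log2 fold change of −0.43, and 0 passed over 6 sets. Of all genes 49.16% were lower, with a median of 0.02. Over 5 sets 14 had an unadjusted p under 0.05 by edgeR, the chosen Mtx2 included, as did 1330 of all 13374 genes tested. Apart from Mtx2, 0 of the list passed. The 42 tested genes other than the 9 members had a median of −0.47 (34 lower, 8 higher), so the tilt did not rest on the members. Both CD8-depleted sets lay below both WT sets for 23 of these 42 and above for 4, where 19.8% and 21% of all genes did. The list was mostly lower in CD3e-/- than in WT cells too, at 48 of 51 with a median of −1.05 over 6 sets and 44 of 51 with a median of −0.33 over 5 sets, and 0 passed in either. Of all genes 49.78% were lower over 6 sets and 53.4% over 5 sets. These comparisons share the WT sets. In CD3e-/- over CD8-depleted cells the list was lower for 41 of 51 over 6 sets, against 47.43% of all genes, and 0 passed. Over 5 sets, with CD3e-/- set 2 as the only set of its group, 18 of 51 were lower, against 50.45% of all genes.

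Within each complex the ends differed, taken here among genes with a mean of at least 20 CPM. In TOM, Tomm5, a small subunit, was lowest at −1.04 (SE 0.78), with 142 and 108 CPM in CD8-depleted sets against 313 and 215 CPM in WT sets. In the TIM23 channel Timm17b, the partner of Timm23, was lowest at −1.09 (SE 0.64), with 27.0 and 22.3 CPM in CD8-depleted sets against 62.8 and 44.5 CPM in WT sets. Timm50, the receptor of that channel, was highest at 0.48 (SE 0.81), with 179 and 196 CPM in CD8-depleted sets against 112 and 152 CPM in WT sets. Such ends were picked by their values, so a distance between them is built in. In the TIM22, small TIM and peptidase lists 0 genes were higher over 6 sets. In the PAM motor Dnajc19 was lowest at −0.91 and Pam16 highest at 0.26, and in TIM22 the values were −1.23 for Timm29 and −1.02 for Timm22. Among the small TIM genes Timm8b was lowest at −0.50 and Timm13 highest at −0.12, and among the peptidases Mipep was lowest at −1.05 and Pmpca highest at −0.05. Of the remaining lists, Chchd4 of the disulfide relay had −0.67, the insertase gene Oxa1l −0.32, and in MICOS Chchd3 was lowest at −0.89 and Micos13 highest at 0.32. None of these genes passed over 6 or 5 sets.

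Below 20 CPM some genes lay outside these ends, and 4 of them are named here after their values were seen. Agk, a lipid kinase that is also a subunit of TIM22, had the lowest fold change of the 51 genes at −2.13 over 6 sets (SE 0.98, adjusted p = 1) and −2.14 over 5 sets (SE 0.85, adjusted p = 0.365). It measured 2.49 and 3.66 CPM in CD8-depleted sets, 39.7 and 9.98 CPM in CD3e-/- sets, and 7.94 and 17.5 CPM in WT sets, from 19 and 20 counts in the CD8-depleted sets. Gfer, the sulfhydryl oxidase of the disulfide relay, lay opposite to Chchd4 at 0.73 (SE 0.76), with 17.5 and 14.8 CPM in CD8-depleted sets, 24.8 and 18.3 CPM in CD3e-/- sets, and 12.6 and 7.55 CPM in WT sets. Grpel2 of the PAM motor had −1.09 (SE 0.79) and Timm8a1 of the small TIM genes −1.29 (SE 1.20). None of the 4 passed over 6 or 5 sets.

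**Figure D3:**
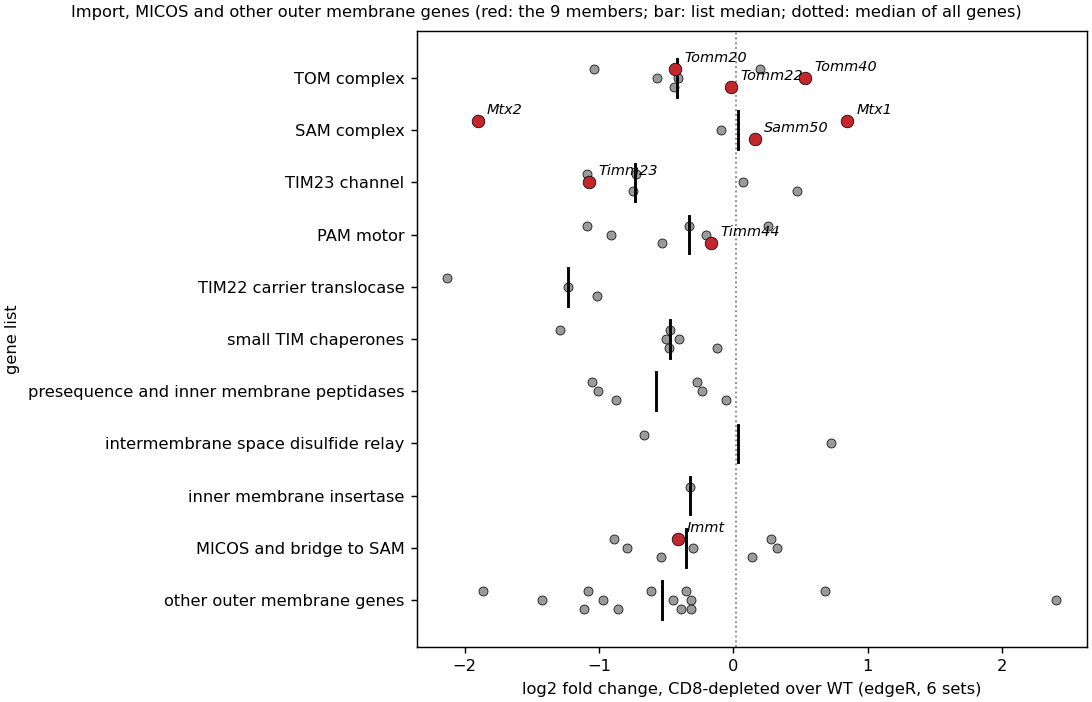
Log2 fold change of CD8-depleted over WT (horizontal axis, edgeR over 6 sets) for each tested gene of the import, MICOS and other outer membrane lists (rows), with the 9 members in red, the list median as a black bar and the median of all genes as a dotted line. In the SAM row Mtx2 at −1.90 and Mtx1 at 0.85 are the ends, and in most other rows the median lies left of the dotted line.

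Genes of other outer membrane proteins were set beside these. Of 14 tested, 12 were lower in CD8-depleted than in WT cells and 2 higher, with a median of −0.53 and 0 past the threshold over 6 or 5 sets. Vdac1, Vdac2 and Vdac3 encode the metabolite channels that SAM folds into the membrane, and all of them were lower in both CD8-depleted sets than in both WT sets. This held for 12 of the 14 genes, the Vdac genes included, against 19.8% of all genes tested. Vdac1 measured 251 and 240 CPM in CD8-depleted sets, 180 and 411 CPM in CD3e-/- sets, and 746 and 341 CPM in WT sets, at −1.08 over 6 sets (SE 0.93, adjusted p = 1) and −1.10 over 5 sets (SE 0.36, adjusted p = 0.238). Vdac2 had −1.14 and Vdac3 −0.88 over 5 sets. Mff, a receptor for mitochondrial fission, was the lowest of these at 20 CPM or more, at −1.42 over 6 sets (SE 0.74) and −1.45 over 5 sets (SE 0.40, adjusted p = 0.120), and Mtch1, a mitochondrial carrier homolog, the highest at 0.68 (SE 0.68). The RNA of 4 of the 6 beta-barrel genes was lower and of 2, Tomm40 and Samm50, higher in CD8-depleted cells, with 0 of the 6 past the threshold.

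In single cells Mtx2 had a read in a smaller share of CD8-depleted than of WT cells. The mean number of reads per cell, cells with no read included, was lower too. The CD8-depleted and WT values here and in the next paragraph come from the sets Mtx2 was chosen on and add no independent support. CD8-depleted sets had at least 1 read in 37 of 62 cells (59.7%) and 22 of 49 cells (44.9%), CD3e-/- sets in 4 of 11 (36.4%) and 65 of 77 (84.4%), and WT sets in 57 of 59 (96.6%) and 46 of 62 (74.2%). The exact 95% intervals, which cover counting error only, were 46.4 to 71.95% and 30.7 to 59.8% in CD8-depleted sets and 88.3 to 99.6% and 61.5 to 84.5% in WT sets. Cells were not equally deep, with medians of 96256 and 98953 nuclear counts in CD8-depleted sets, 40699 and 223873 in CD3e-/- sets, and 413073 and 242696 in WT sets. Thinned to 50000 nuclear counts, 50.9% of 57 and 32.6% of 46 CD8-depleted cells, 50% of 4 and 73.3% of 75 CD3e-/- cells, and 88.1% of 59 and 56.5% of 62 WT cells had a read. The order of the CD8-depleted and WT sets was the same at equal depth, but the interval of CD8-depleted set 1 (37.3 to 64.4%) overlapped that of WT set 2 (43.3 to 69.01%). Thinned cells held on average 2.33 and 1.43 Mtx2 counts in CD8-depleted sets, 3.50 and 4.01 in CD3e-/- sets, and 7.12 and 3.31 in WT sets. The fitted log2 fold change over thinned cells was −1.32 over 6 sets.

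The median CD8-depleted cell had 12.4 CPM of Mtx2 in set 1 and 0 CPM in set 2, the median CD3e-/- cell 0 and 37.7 CPM, and the median WT cell 133 and 19.4 CPM. The median of WT set 2 was nearer to that of CD8-depleted set 1 than to that of WT set 1, while the upper quartile was 35.9 and 22.9 CPM in CD8-depleted sets and 94.7 CPM in WT set 2. Single cells weighed on the sums. The highest cell gave 22.7% and 34.2% of all Mtx2 counts in CD8-depleted sets, 70% and 18.4% in CD3e-/- sets, and 11.2% and 13.5% in WT sets. Without the highest cell of each gene and set the log2 fold change of CD8-depleted over WT was −2.10. In cells with 80 to 95% of counts from mitochondrial DNA, Mtx2 measured 35.6 and 18.9 CPM in CD8-depleted sets, 45.6 and 72.6 CPM in CD3e-/- sets, and 123 and 70.3 CPM in WT sets, and the fold change was −1.63.

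**Figure D4:**
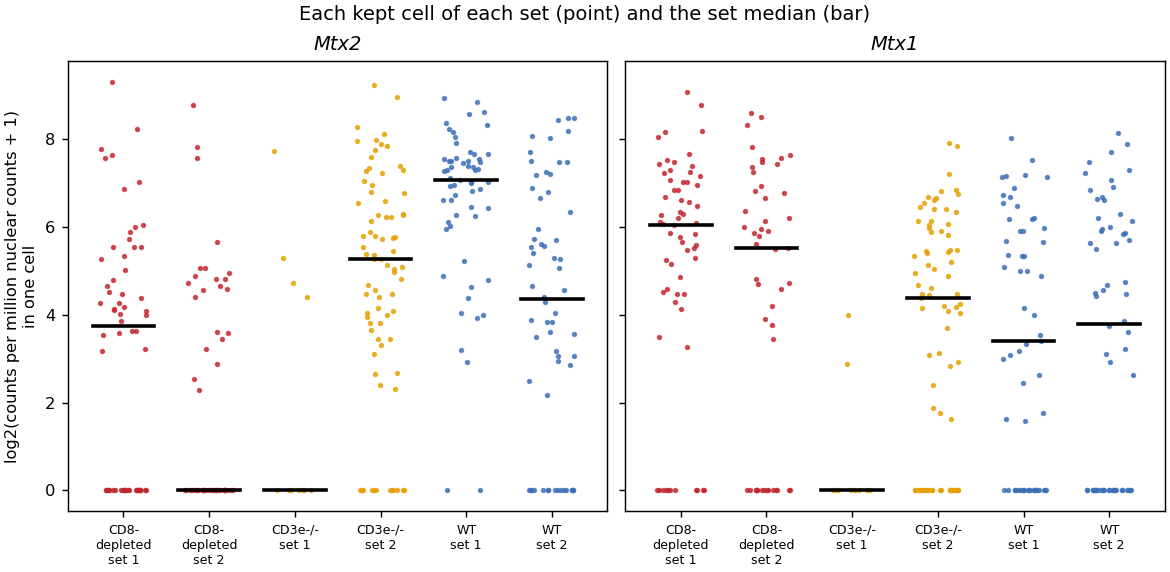
Mtx2 (left) and Mtx1 (right) in every kept cell, as log2(CPM + 1) over nuclear genes (vertical axis), with 1 point a cell and a bar at the median of each set. Points at 0 are cells with no read. For Mtx2 the medians are 12.4 and 0 CPM in CD8-depleted sets against 133 and 19.4 CPM in WT sets, and for Mtx1 they are 65.3 and 44.6 CPM against 9.63 and 12.9 CPM.

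Mtx1 in single cells comes from the same reads as its set sums, so it adds no independent support. Its medians per cell were higher in both CD8-depleted sets than in both WT sets. The median cell had 65.3 and 44.6 CPM in CD8-depleted sets, 0 and 19.9 CPM in CD3e-/- sets, and 9.63 and 12.9 CPM in WT sets. Thinned to 50000 counts, a read was found in 80.7% and 67.4% of CD8-depleted cells, 0% and 52% of CD3e-/- cells, and 49.2% and 50% of WT cells. The 0% stands for 0 of 4 cells, with an exact upper limit of 60.2%. The other members were found in most cells. Immt had a read in all 320. Samm50 was found in 100% and 93.5% of thinned CD8-depleted cells, against 91.5% and 93.5% of WT cells. Timm23 was found in 73.7% and 56.5% of thinned CD8-depleted cells, 25% and 82.7% of CD3e-/- cells, and 89.8% and 74.2% of WT cells. Tomm40 was found in 89.5% and 93.5% of thinned CD8-depleted cells, 75% and 92% of CD3e-/- cells, and 72.9% and 85.5% of WT cells.

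From cell to cell within a set the members hardly moved together. Over 299 thinned cells of the 5 sets, the mean within-set Spearman correlation of Mtx2 was 0.16 with Samm50 and between −0.04 and 0.06 with the 7 other members, Mtx1 at −0.04. The highest of the 36 pairs was Samm50 with Timm44 at 0.21. Cells share library and depth, counts are sparse, and no test was made of these values. Among 2368 genes with a mean of at least 50 CPM, those most like Mtx2 by this measure were Nfu1, which acts in iron-sulfur cluster assembly, at 0.29, Mdh1, the cytosolic malate dehydrogenase, at 0.28, the ATP synthase gene Atp5pb at 0.25, the complex I genes Ndufb8 and Ndufs3 at 0.25 each, and the sarcomeric actin gene Actc1 at 0.24.

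Across the 6 sets the likeness ran to other genes. Among 5218 genes with a mean of at least 20 CPM, the highest Pearson correlations with Mtx2 of log2(CPM + 1) were those of Isca1 (0.99), also of iron-sulfur assembly, Aig1 (0.99), a hydrolase of fatty acid esters, Cdk2ap2 (0.99), the phosphodiesterase gene Pde3a (0.99), Acadsb (0.99), an acyl-CoA dehydrogenase of branched-chain substrates, and Smim11 (0.99). These are descriptions over 6 points, of which 4 are the sets Mtx2 was chosen on. Isca1 measured 64.8 and 39.3 CPM in CD8-depleted sets, 54.6 and 109 CPM in CD3e-/- sets, and 200 and 97.3 CPM in WT sets, the same order of sets as Mtx2 apart from CD3e-/- set 2, which lay above WT set 2. Of the other members Timm23 came closest to Mtx2 by this measure at 0.80, then Tomm20 at 0.64 and Immt at 0.58. Samm50 had 0.23, Mtx1 0.10, and Tomm40 was the farthest at −0.92. That value includes CD3e-/- set 1, where 1 cell gave 81.6% of the Tomm40 counts.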

How the data were processed

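The deposited table holds raw counts per gene for 375 cells, which per the labels the authors made with fastp 0.21.0, STAR 2.7.5c and featureCounts (no version given) on mm10. The study's methods name other tools for this step, and the label was followed for the build. Counts came with no normalization and reads had no molecular identifiers. The exact intervals of cell shares cover counting error only, whereas the intervals of fold changes rest on the spread between sets. Whether counting used strand is not given in the sources used here.

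Cells with under 3000 detected genes (53) and 1 identical pair (2 cells) were left out, as were the 13 mitochondrially encoded genes. Counts were summed per numbered set and compared with edgeR 4.0.16 (R 4.3.3, filterByExpr, TMM, quasi-likelihood F test, Benjamini-Hochberg adjustment over all genes tested, threshold 0.05), over 6 sets with 3 residual degrees of freedom and over 5 with 2. Levels in CPM use plain nuclear totals, whereas fold changes are TMM-scaled, with a factor of 1.94 in CD3e-/- set 1 and factors of 0.755 to 0.97 elsewhere. The script was tested on simulated data. These varied less between sets than the real counts and held larger changes, so the test checks the code and not the power of the fits. Alternatives included DESeq2 1.42.0 and limma 3.58.1. Named genes were the 9 members, the highest and lowest gene of each list at 20 CPM or more, any list gene past the threshold, and the 6 genes most like Mtx2 by each of 2 measures. The members and lists were chosen with earlier results of these data known. Thinning drew 50000 nuclear counts from each of 303 deep enough cells.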

Additional observations from a re-analysis of the deposited data

How the results depend on the processing

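Of 630 values of the members' log2 fold changes under other settings, 54 changed sign. Mtx2 in CD8-depleted over WT lay between −2.50 and −1.32 over 24 alternatives, values that come from the sets it was chosen on and lend it no support. Over the 6 sets 0 members passed in that comparison. Without CD3e-/- set 1 or set 2 1 did, and over 5 sets 1 did with DESeq2 and 1 with the highest cell left out, each time the chosen Mtx2, and 0 in the 4 sets of both groups alone. Leaving out 1 set of the group not compared gave 0 members in CD3e-/- against WT and 0 in CD3e-/- against CD8-depleted. Fits that leave 1 set in a compared group are not counted in these numbers. The cause of the other changes was not tested.

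Genes called moved likewise. Leaving out 1 set gave 0 to 47 genes in CD8-depleted against WT, 0 to 4588 in CD3e-/- against WT and 0 to 3472 in CD3e-/- against CD8-depleted. In that order of comparisons, DESeq2 called 8, 611 and 15 genes over 6 sets and 157, 13 and 10 over 5 sets, and edgeR with no low-count filter 12, 303 and 106. Over 5 sets the counts were 10, 6 and 1 with library sizes only, 29, 3 and 2 with the highest cell left out, and 12, 3 and 0 with thinned cells. The 4 sets of CD8-depleted and WT cells alone gave 2. Deviations of same-numbered sets from their group means correlated across genes at −0.19 to 0.07. With 2 sets per group this cannot settle whether set numbers pair the samples. With the set number as a replicate block, 0 genes and 0 members passed over 6 sets, and 10, 15 and 3 genes and 0 members over 5 sets. Scaling by library size moved the median log2 fold change of all genes to 0.68 in CD3e-/- over WT and to 0.73 in CD3e-/- over CD8-depleted, against 0.131 and 0.163 over 5 sets.

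Tomm22 in CD8-depleted over WT was 0.11 in cells with 5000 genes, 0.01 with DESeq2 and with the replicate block, 0.05 with cells weighted alike, 0.09 with thinned cells and 0.02 without the highest cell. Over 5 sets it was 0.02 with DESeq2, 0.05 with cells weighted alike, 0.08 with thinned cells and 0.03 without the highest cell. Timm44 was 0.04 in cells with 80 to 95% mitochondrially encoded counts. In CD3e-/- over WT, Tomm22 over 5 sets was 0.41 with library sizes only, 0.22 with DESeq2, 0.48 with cells weighted alike, 0.26 with thinned cells, 0.21 without the highest cell and 0.23 with the block. Tomm40 there was 0.43 in cells with 5000 genes, 0.09 in the 80 to 95% window, 0.63 with library sizes only, 0.23 with cells weighted alike and 0.08 with thinned cells, and over 5 sets 0.21 with library sizes only and 0.20 with cells weighted alike. Mtx1 was 0.01 over 5 sets with library sizes only, and Timm23 0.33 with cells weighted alike. In CD3e-/- over CD8-depleted, over 5 sets, Tomm22 was 0.44 with library sizes only, 0.20 with DESeq2, 0.43 with cells weighted alike, 0.18 with thinned cells and without the highest cell, and 0.27 with the block. Immt was 0.30 with library sizes only, 0.06 with DESeq2, 0.28 with cells weighted alike and 0.10 with the block. Timm44 was 0.02 with library sizes only and 0.01 with cells weighted alike, where Tomm20 was 0.32. Over 6 sets Tomm40 was 0.04 with library sizes only, and Timm23 was −0.73 in the 80 to 95% window and −0.24 with thinned cells. Leaving out 1 set turned the sign of further values. In CD8-depleted over WT the range was −0.89 to 0.03 for Immt, −0.29 to 0.76 for Samm50, −0.36 to 0.03 for Timm44 and −0.12 to 0.06 for Tomm22. In CD3e-/- over WT it was −2.73 to 0.21 for Tomm22 and −0.71 to 0.50 for Tomm40. In CD3e-/- over CD8-depleted it was −2.42 to 0.11 for Immt, −1.14 to 1.10 for Mtx2, −0.31 to 0.50 for Timm23 and −2.71 to 0.25 for Tomm22.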
